A study of Rattus norvegicus with 18 samples.

Results

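Transcripts of 6 genes that make, load or sense the inhibitory transmitter gamma-aminobutyric acid (GABA) were followed in 18 RNA-sequencing libraries of rat cortical neuroglial cultures. The genes were Gad1, Gad2, Slc32a1, Gabra2, Gabra5 and Gabrb2, found by name in the tables and chosen with earlier results of these data known. Each matched exactly 1 of the 31463 rows of the deposited tables, and all 6 were among the 14398 genes that passed the filter on low counts and were tested. The cultures were prepared from the cerebral cortex of newborn Wistar rats and treated with cytosine arabinoside to restrain the growth of glia, so that each library mixes RNA of neurons and glial cells.

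The libraries formed 6 groups of 3. Control cultures received no glutamate. The Glutamate group was exposed to 100 µM glutamate on day 10 in vitro, which models excitotoxic injury of neurons. Memantine cultures received 100 µM memantine, which blocks the open channel of NMDA receptors, as the positive control. The label of this group does not name glutamate, but the design text places it in the glutamate model. Glutamate_vesicles, Glutamate_secret and Glutamate_BPC cultures were given secreted material of glial progenitor cells on the day before glutamate, extracellular vesicles in the first case. The design text names a protein fraction and the total secretome as the remaining preparations, and the labels do not say which of them Glutamate_secret and Glutamate_BPC received. The progenitor cells came from human induced pluripotent stem cells of a single donor, so that the preparations have 1 human source and act on rat cells. RNA was taken 4 h after the end of the glutamate exposure.

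GABA is made from glutamate by the glutamate decarboxylases, of which Gad1 encodes the form found throughout the cell and Gad2 the form enriched in nerve endings. Slc32a1 encodes the vesicular transporter that loads GABA and glycine into synaptic vesicles, and these 3 genes together mark inhibitory neurons in the cortex. Gabra2, Gabra5 and Gabrb2 encode subunits of the GABA-A receptor, a chloride channel assembled from several subunits and made by excitatory and inhibitory neurons alike.

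Start regions of Gad1, Gad2, Slc32a1 and Gabra5 are shown because these 4 genes were below every Control library in all 12 libraries that received glutamate without memantine. RefSeq start regions of the assembly GRCr8, each with 250 bases before and 50 after the annotated start, were at hand for 5 of the 6 members and not for Gabra2. GRCr8 is a later build than the rn6 used for the deposited counts. The regions below lie at chr3:75777202-75777501 on the plus strand for Gad1, chr17:89671468-89671767 on the plus strand for Gad2, chr3:167686995-167687294 on the plus strand for Slc32a1 and chr1:117516557-117516856 on the minus strand for Gabra5. Capitals mark matches, on either strand, of the TATA box TATAAA, the GC box GGGCGG and the core TGACG of the cyclic AMP response element.
Gad1: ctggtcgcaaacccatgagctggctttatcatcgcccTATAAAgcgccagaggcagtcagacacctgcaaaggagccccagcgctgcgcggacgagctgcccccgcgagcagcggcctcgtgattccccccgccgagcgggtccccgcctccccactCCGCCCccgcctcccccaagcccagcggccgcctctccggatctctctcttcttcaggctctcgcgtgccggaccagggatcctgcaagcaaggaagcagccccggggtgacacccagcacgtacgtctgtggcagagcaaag
Gad2: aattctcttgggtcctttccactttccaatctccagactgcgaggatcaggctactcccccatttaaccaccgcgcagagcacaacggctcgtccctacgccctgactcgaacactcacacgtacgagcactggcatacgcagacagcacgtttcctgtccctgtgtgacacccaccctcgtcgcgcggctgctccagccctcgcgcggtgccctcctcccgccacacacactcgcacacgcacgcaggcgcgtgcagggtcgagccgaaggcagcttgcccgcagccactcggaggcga
Slc32a1: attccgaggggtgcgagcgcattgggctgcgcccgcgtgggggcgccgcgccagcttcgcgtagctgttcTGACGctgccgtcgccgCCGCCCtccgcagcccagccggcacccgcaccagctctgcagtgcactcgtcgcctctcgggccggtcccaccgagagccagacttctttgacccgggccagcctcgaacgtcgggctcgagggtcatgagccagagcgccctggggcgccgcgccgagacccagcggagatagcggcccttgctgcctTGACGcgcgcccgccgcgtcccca
Gabra5: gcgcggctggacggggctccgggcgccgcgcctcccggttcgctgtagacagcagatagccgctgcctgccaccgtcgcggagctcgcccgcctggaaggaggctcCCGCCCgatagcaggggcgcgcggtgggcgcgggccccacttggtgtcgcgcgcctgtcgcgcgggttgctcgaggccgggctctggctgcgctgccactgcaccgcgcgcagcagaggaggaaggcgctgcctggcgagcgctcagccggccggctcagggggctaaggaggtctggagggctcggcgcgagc

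All 4 regions were rich in G and C, with 67.67% in Gad1, 63.67% in Gad2, 73.67% in Slc32a1 and 76.33% in Gabra5, against a median of 51.67% over 33469 start regions of the same length. The region of Gabrb2 stood apart with 44.0%. The letters of the TATA box were found in Gad1 alone among the 5, and in 14.22% of all start regions. Matches were counted anywhere in a region, and that of Gad1 lies far before the annotated start. A GC box was found once each in Gad1, Slc32a1 and Gabra5, and in 33.06% of all. The core TGACG occurred at 2 places in Slc32a1, the later of them after the annotated start. It was found in no other of the 5, and in 21.2% of all start regions. Neither the full element TGACGTCA, which contains the core and was present in 1.829% of all, nor the homeodomain core TAATTA, present in 5.357%, was found in any of the 5. The 4 genes therefore share a high G and C content but no single one of these motifs.

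Total counts ranged from 8409574 to 17206354 per library, and levels are given as CPM, counts brought to one common library size after TMM scaling, which corrects for differences in RNA composition. Ribosomal RNA took between 3.04% and 43.0% of a library's counts, with the highest share in Control 1, and the TMM factors ran from 0.417 to 1.58. CPM are not divided by gene length, so that levels are compared between libraries and not between genes. Gabrb2 was counted only sparsely, with 0 to 144 reads in a library. In RNA from mixed cells, fewer inhibitory neurons and less of a transcript in each of them cannot be told apart.

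Gad1 stood at 105, 124 and 127 CPM in the Control libraries. In the Glutamate libraries it stood at 66.1, 55.7 and 40.6 CPM, all below the lowest Control library. Gad2 had 25.4, 10.6 and 12.7 CPM in Control and 9.17, 5.14 and 3.99 CPM in Glutamate, again without overlap. These are the enzymes of GABA synthesis, and their mean levels under glutamate were 45.7% of Control for Gad1 and 37.6% for Gad2.

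The vesicular transporter Slc32a1 showed a wider gap. It was counted at 18.8, 41.2 and 40.8 CPM in Control and at 9.30, 6.29 and 5.93 CPM in Glutamate, or 21.3% of the Control mean. Gabra5, a GABA-A alpha subunit known for receptors outside the synapse, had 16.3, 38.6 and 31.0 CPM in Control. Its Glutamate libraries held 7.09, 7.24 and 3.50 CPM, or 20.8% of the Control mean, and did not reach the Control range. In both genes Control 1 was the lowest Control library.

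The remaining receptor subunits behaved less evenly. Gabra2, another alpha subunit, was at 9.42, 7.26 and 13.1 CPM in Control and at 1.16, 14.9 and 4.38 CPM in Glutamate, so that Glutamate 2 exceeded every Control library while the other Glutamate libraries lay below them. Gabrb2, a beta subunit, was at 0.857, 1.23 and 1.08 CPM in Control and at 0.258, 0.635 and 0.486 CPM in Glutamate. The Gabrb2 ranges did not overlap, but the Glutamate values rest on 2, 10 and 5 reads.

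**Figure D1:**
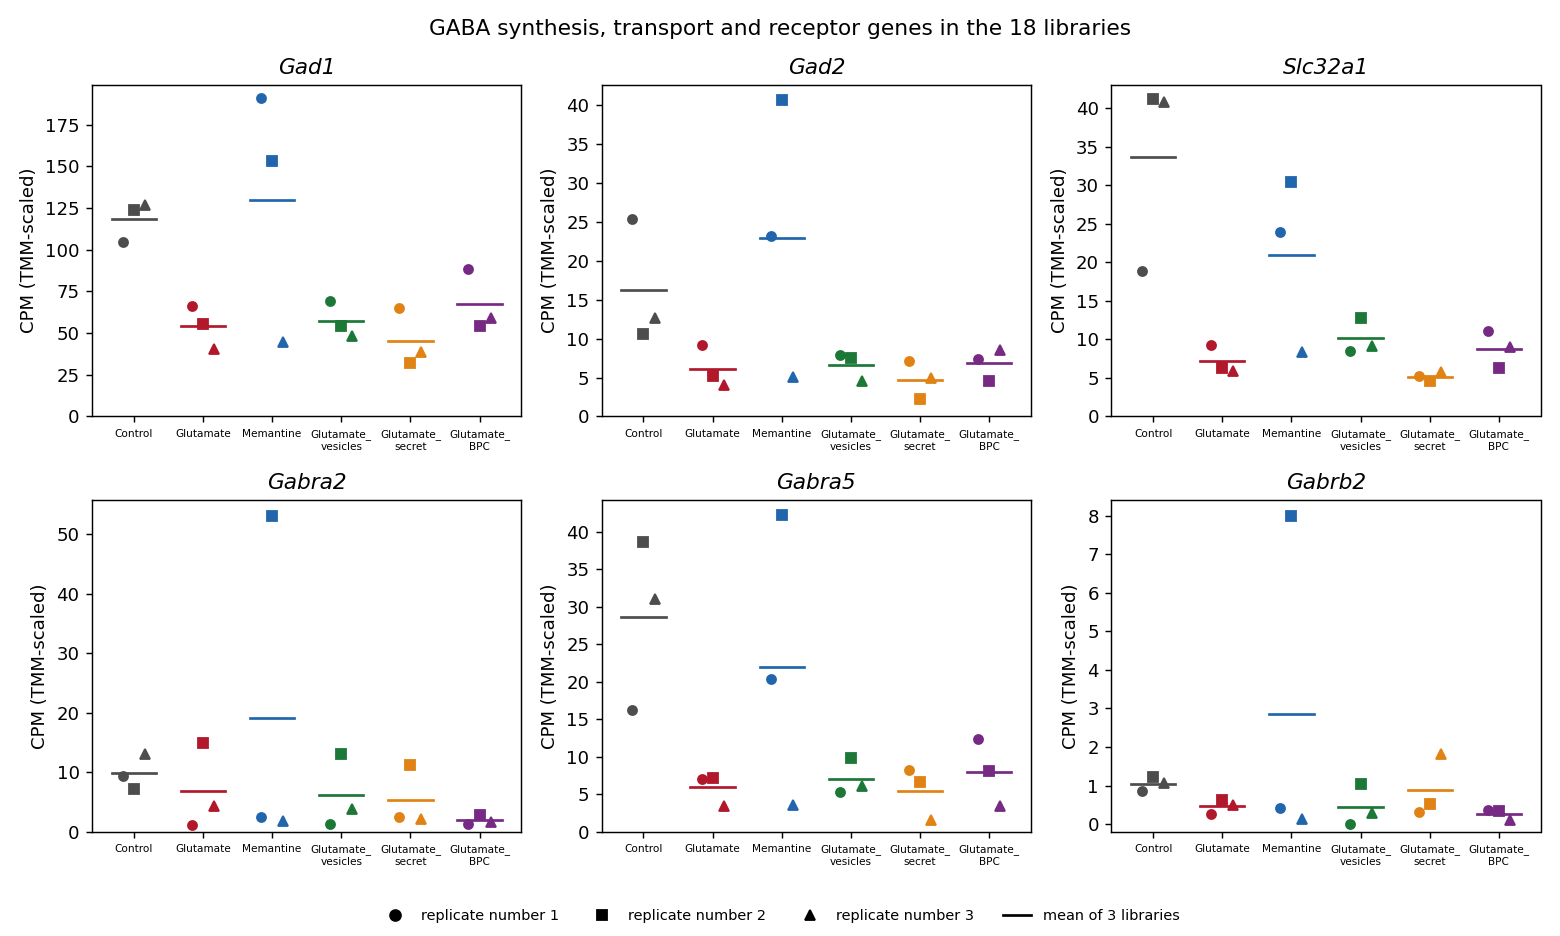
Levels of the 6 genes in each of the 18 libraries, in CPM at TMM-scaled library size (vertical axis, linear), by group (horizontal axis), where the marker shape gives the replicate number and the line the group mean. Gad1, Gad2, Slc32a1 and Gabra5 lie lower in the Glutamate libraries and in those of the 3 preparations than in Control, Memantine 3 lies apart from the other Memantine libraries, and Gabra2 and Gabrb2 peak in Memantine 2.

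Tested with edgeR's quasi-likelihood test over all 14398 genes, with Benjamini-Hochberg adjustment, none of the 6 genes passed an adjusted p of 0.05 for Glutamate against Control, where 0% of all tested genes passed. The log2 difference was -2.23 (SE 0.47) for Slc32a1, with an unadjusted p of 0.00021 and an adjusted p of 0.261, and Slc32a1 ranked 9 among all genes by p. It was -2.27 (SE 0.76, unadjusted p = 0.00899 by edgeR) for Gabra5, -1.13 (SE 0.44, unadjusted p = 0.0214 by edgeR) for Gad1 and -1.40 (SE 0.64, unadjusted p = 0.0439) for Gad2. For Gabra2 the difference of -0.53 was smaller than its SE of 1.15, and it was -1.82 without Glutamate 2 and -0.039 without Glutamate 1. For Gabrb2 the difference of -1.17 had an SE of 1.25.

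Thus 4 of the 6 had an unadjusted p under 0.05 in the lower direction, against 5.97% of all tested genes. In 5 of the 6 the Glutamate range lay below the Control range, against 7.76% of all tested genes. The median log2 difference was -1.29 over the 6 genes and 0.08 over all tested genes. With other tools run on the same libraries, Slc32a1 was the single member called, with an adjusted p of 0.0161 in edgeR's likelihood-ratio test and 0.00123 in DESeq2. The share of all tested genes that these tools called was not counted. Without Control 1, the log2 difference was -2.52 for Slc32a1, -2.55 for Gabra5, -1.21 for Gad1 and -0.93 for Gad2, whose unadjusted p by edgeR was then 0.186. Gad2 also missed an unadjusted p of 0.05 without Glutamate 2 (0.106 by edgeR) or Glutamate 3 (0.134), and Gad1 without Glutamate 3 (0.0811).

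Memantine libraries 1 and 2 held levels of the inhibitory genes near those of Control, and Memantine 3 did not. Gad1 was at 191, 153 and 44.6 CPM, the first pair above every Control library and the third value within the Glutamate range. Slc32a1 was at 23.9, 30.4 and 8.41 CPM, and Gad2 at 23.2, 40.7 and 5.10 CPM. The same order held in the receptor subunit Gabra5, with 20.4, 42.2 and 3.52 CPM. Memantine 3 was thus within the Glutamate range in all 4 genes, and no member separated the Memantine and Glutamate libraries completely, where 1.74% of all tested genes did so in the higher direction. Libraries of the same number deviated together in this comparison. Within each number, the log2 CPM of these 4 genes was higher in Memantine than in Glutamate. The difference was smallest for number 3, with 0.13 for Gad1, 0.34 for Gad2, 0.49 for Slc32a1 and 0.007 for Gabra5. For Gabra2 and Gabrb2 it was below 0 for number 3, with -1.17 and -1.12. These differences within numbers are given without a test.

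Gabra2 and Gabrb2 reached their highest levels of the whole series in Memantine 2, with 53.1 and 8.001 CPM. The other Memantine libraries held 2.47 and 1.87 CPM of Gabra2, and 0.430 and 0.144 CPM of Gabrb2. The group means of these subunits therefore rest on a single library. Without Memantine 2, the log2 difference from Glutamate turned from 1.48 to -1.66 for Gabra2 and from 2.60 to -0.75 for Gabrb2.

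For Memantine against Glutamate, edgeR's quasi-likelihood test gave log2 differences of 1.26 for Gad1 (SE 0.44), 1.92 for Gad2 (SE 0.65), 1.55 for Slc32a1 (SE 0.46) and 1.89 for Gabra5 (SE 0.75). Their adjusted p-values in edgeR lay between 0.611 and 0.751. None of the 6 genes was called, and 0% of all tested genes were. An unadjusted p under 0.05 in the higher direction was found in 4 of the 6 genes against 4.88% of all tested genes. DESeq2 and the likelihood-ratio test called none of the 6 either. The call depends on Memantine 3, since without it 3 members passed. They were Slc32a1 with an adjusted p of 0.0278, Gad1 with 0.0344 and Gad2 with 0.0475 in edgeR. How many of all tested genes passed in that fit was not counted, so the 3 calls cannot be set against a share of all genes. Leaving out some of the other libraries gave smaller differences. Without Memantine 2 the log2 difference was 0.999 for Gabra5 (unadjusted p = 0.198 in edgeR) and 1.21 for Gad2 (0.0781), and without Memantine 1 it was 0.868 for Gad1 (0.0775). Without Glutamate 3 the unadjusted p in edgeR was 0.0519 for Gad1 and 0.0832 for Gabra5, while that of Slc32a1 stayed below 0.05 without any single library of the 6. Summed over 12 pan-neuronal markers, Memantine 3 held 1207 CPM and Memantine 1 and 2 held 5848 and 3114 CPM. Summed over 8 astrocyte markers it held 10968 CPM, against 4358 and 3713 CPM. The part of these differences in the result was not tested. Against Control, no member of the Memantine group was called (0% of all tested genes), none had an unadjusted p under 0.05 (1.12% of all tested genes) and none lay outside the Control range in all 3 libraries (2.35%).

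Cultures that received a progenitor preparation before glutamate had levels of the inhibitory genes within or near the range of the Glutamate libraries. With vesicles, Gad1 was at 69.5, 54.1 and 48.1 CPM, Gad2 at 7.88, 7.46 and 4.52 CPM, and Slc32a1 at 8.47, 12.8 and 9.09 CPM. In Glutamate_secret libraries the corresponding levels were 64.9, 32.1 and 38.7 CPM of Gad1, 7.09, 2.26 and 4.89 CPM of Gad2, and 5.20, 4.56 and 5.79 CPM of Slc32a1. In Glutamate_BPC libraries they were 88.7, 54.5 and 59.1 CPM of Gad1, 7.43, 4.50 and 8.57 CPM of Gad2, and 11.1, 6.28 and 9.003 CPM of Slc32a1. Every one of these values was below the lowest Control library of its gene.

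The receptor subunit Gabra5 was at 5.28, 9.87 and 6.12 CPM with vesicles, at 8.19, 6.68 and 1.63 CPM in Glutamate_secret and at 12.4, 8.13 and 3.47 CPM in Glutamate_BPC. Gabra2 was again uneven, with 1.30, 13.1 and 3.89 CPM with vesicles, 2.52, 11.3 and 2.17 CPM in Glutamate_secret and 1.36, 2.77 and 1.63 CPM in Glutamate_BPC. Gabrb2 stayed between 0 and 1.81 CPM in these 9 libraries, on at most 26 reads.

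Against Glutamate, none of the 6 genes was called in any preparation (0% of all tested genes in each by edgeR), and none had an unadjusted p under 0.05, where 1.08% of all tested genes did for vesicles, 0.681% for Glutamate_secret and 1.07% for Glutamate_BPC. DESeq2 called none. The log2 difference of Slc32a1 was 0.50 (SE 0.45) with vesicles, -0.47 (SE 0.45) in Glutamate_secret and 0.30 (SE 0.45) in Glutamate_BPC. For Gad1 it was 0.08 (SE 0.44), -0.26 (SE 0.44) and 0.32 (SE 0.44) in the same order. Ranges without overlap were found for none of the 6 genes with vesicles (6.27% of all tested genes) or Glutamate_BPC (7.13%), and for 1 in Glutamate_secret (3.41%), where Slc32a1 lay below all Glutamate libraries.

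Set against Control, the log2 difference of Slc32a1 was -1.73 (SE 0.46) with vesicles, -2.70 (SE 0.48) in Glutamate_secret and -1.94 (SE 0.46) in Glutamate_BPC. For Gad1 the differences were -1.05 (SE 0.44), -1.39 (SE 0.45) and -0.81 (SE 0.44), and for Gabra5 -2.01 (SE 0.75), -2.37 (SE 0.77) and -1.84 (SE 0.75). None of the 6 genes was called by edgeR's quasi-likelihood test, against 0.0139% of all tested genes for vesicles and 0% for each of Glutamate_secret and Glutamate_BPC. The lowest adjusted p was 0.126, for Slc32a1 in Glutamate_secret, where it ranked 3 of all genes. An unadjusted p under 0.05 in the lower direction was found in 3 of the 6 genes with vesicles (7.61% of all tested genes), 4 in Glutamate_secret (7.61%) and 2 in Glutamate_BPC (7.42%). Ranges lay below Control in 4, 4 and 6 of the 6 genes, against 9.83%, 9.07% and 12.7% of all tested genes.

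DESeq2 called Slc32a1 against Control in all 3 preparations, with an adjusted p of 0.0137 for vesicles, 7.4e-05 for Glutamate_secret and 0.00978 for Glutamate_BPC. The likelihood-ratio test of edgeR called it in Glutamate_secret (adjusted p = 0.000903) and Glutamate_BPC (0.0425). For vesicles, where libraries of the same number deviated together, edgeR with the replicate number as a block called Slc32a1 with an adjusted p of 0.039. These comparisons share the Control libraries with each other and with Glutamate against Control, so they are not independent of one another. Calls over all tested genes were not counted for these alternative fits. Over all 12 libraries with glutamate and without memantine, Gad1, Gad2, Slc32a1 and Gabra5 were below all 3 Control libraries, as were 5.41% of all tested genes, and Gabra2 and Gabrb2 were not. The highest of the 12 was 88.7 CPM against a lowest Control of 105 CPM for Gad1, and 12.8 against 18.8 CPM for Slc32a1. In the F test of edgeR over the 6 groups, no member was called (0.00695% of all tested genes), with adjusted p-values of 0.1 for Slc32a1, 0.293 for Gad2, 0.318 for Gad1, 0.32 for Gabra5, 0.97 for Gabrb2 and 1 for Gabra2.

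**Figure D2:**
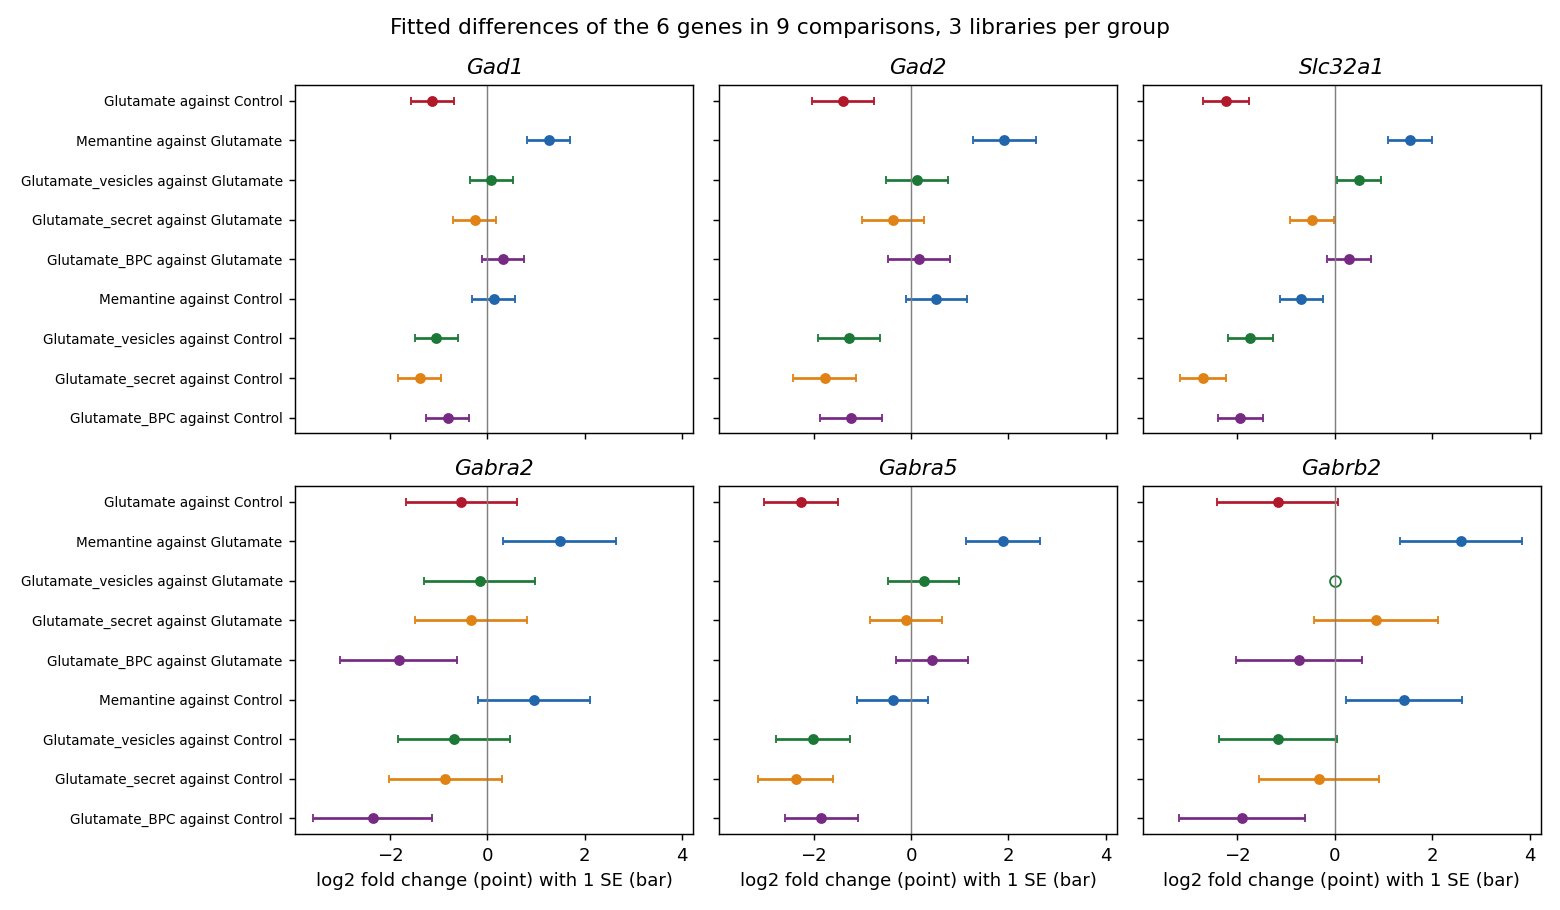
Fitted log2 fold change (horizontal axis, point) with 1 SE (bar) of each of the 6 genes in the 9 comparisons named on the vertical axis, 3 libraries per group, and an open circle without a bar where no SE could be given. The 4 comparisons of glutamate-exposed groups without memantine against Control lie at or below -0.81 for Gad1, Gad2, Slc32a1 and Gabra5, while the 3 preparations against Glutamate lie between -0.37 and 0.43 for Gad1, Gad2 and Gabra5.

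Markers of neurons were lower in the same libraries as the GABA genes. The summed level of 12 pan-neuronal markers was 3182 to 4936 CPM in Control and 1073 to 2079 CPM in Glutamate. All 12 markers had a log2 difference below 0, with a median of -1.51. In edgeR 7 had an unadjusted p under 0.05, against 5.97% of all tested genes in the lower direction. Of 21 markers of the inhibitory lineage, 18 were below 0 and 3 above it, from -2.82 to 1.27, with a median of -0.97. An unadjusted p under 0.05 in the lower direction was found in 6, against 5.97% of all tested genes. Those below 0 include the calcium-binding protein gene Calb2, with 93.8 CPM in Control and 26.2 CPM in Glutamate on average. They also include Lhx6, a transcription factor of interneurons of the medial ganglionic eminence, with 6.40 and 0.884 CPM. Both were picked after the values of the list were seen and do not stand for it. All 10 markers of excitatory neurons were below 0, from -2.92 to -0.34, with a median of -2.21. The vesicular glutamate transporter Slc17a7, the excitatory counterpart of Slc32a1, stood at 60.9 CPM in Control and 8.10 CPM in Glutamate, a log2 difference of -2.92 (SE 0.85). Markers of glia were mostly on the other side of 0, with 8 of 8 astrocyte, 8 of 8 microglial and 7 of 8 oligodendrocyte lineage markers above it and medians of 0.65, 1.01 and 0.59. None of these markers was called by edgeR in that comparison. The part of these lists in the differences of the 6 genes was not tested.

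Defining markers of inhibitory neurons were present in all groups. Of the 21, Sp9, Prox1 and Adarb2 were at 0 in Control 1 and 1 of them each in 4 libraries with a preparation, and the remaining 18 were above 0 in every library. The summed level of the list was 344 to 614 CPM in Control, 147 to 256 CPM in Glutamate and 168 to 378 CPM in Memantine. The summed excitatory markers were at 226 to 612 CPM, 67.3 to 153 CPM and 50.9 to 428 CPM in the same groups. Of the 10 excitatory markers Fezf2 was at 0 in Control 1, and no pan-neuronal marker was at 0 in any library. In the inhibitory and excitatory sums Memantine 3 was the lowest Memantine library.

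**Figure D3:**
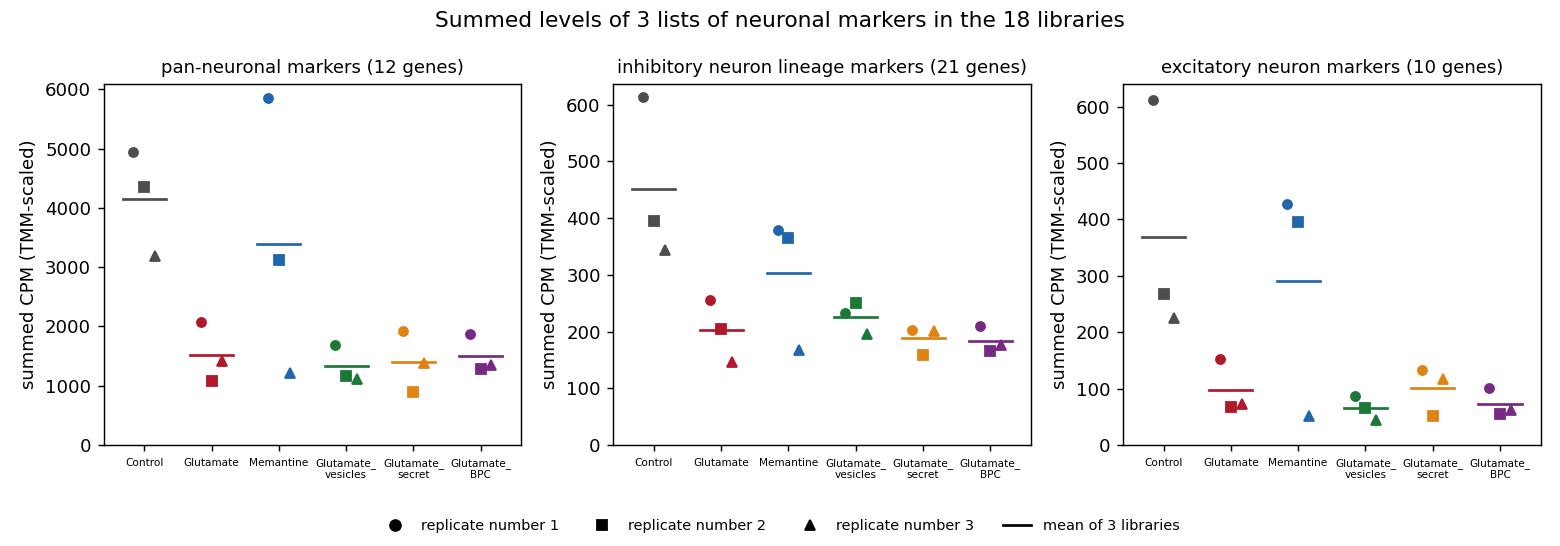
Summed CPM (vertical axis, linear, from 0) of 12 pan-neuronal, 21 inhibitory lineage and 10 excitatory markers in each library by group, where the marker shape gives the replicate number and the line the group mean. In all 3 lists the Control libraries lie above the Glutamate libraries, and Memantine 3 lies with the Glutamate libraries.

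Each member was next set against the mean log2 CPM of the 12 pan-neuronal markers in the same library. Relative to the markers, Gad1 was at -1.03, -0.40 and 0.25 on the log2 scale in Control and at -0.34, -0.09 and -0.52 in Glutamate. The difference of the means was 0.08, with a two-sided exact permutation p of 0.9. Gad2 differed by -0.14 (exact permutation p = 0.8). For both enzymes the relative level differed by less than the spread of the Control libraries.

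Slc32a1 relative to the markers was at -3.50, -1.99 and -1.38 in Control and at -3.15, -3.21 and -3.26 in Glutamate, a difference of -0.92 (exact permutation p = 0.4). Gabra5 differed by -0.99 (exact permutation p = 0.3). In both genes Control 1 lay within or below the Glutamate range and Controls 2 and 3 above it, so that the groups overlapped. With 3 libraries against 3 the smallest p that the exact test can give is 0.1, and of the 54 comparisons of this kind none had a Benjamini-Hochberg adjusted p below 0.771.

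Some relative levels separated from those of the Glutamate libraries. Gad1 relative to the markers was higher in all libraries of Memantine (difference 0.33), Glutamate_vesicles (0.44) and Glutamate_BPC (0.49) than in any Glutamate library, each at the smallest possible exact permutation p of 0.1. The same held for Slc32a1, with differences of 0.65, 0.84 and 0.46 and an exact permutation p of 0.1 each. Gad2 separated in Memantine alone, by 0.83 (exact permutation p = 0.1). In Glutamate_secret the differences were -0.01 for Gad1 and -0.15 for Slc32a1, with overlapping ranges. These comparisons share the 3 Glutamate libraries, and their adjusted p of 0.771 does not separate them from the other comparisons of the family. A relative level also changes when the markers do. With vesicles the log2 difference of Gad1 itself from Glutamate was 0.08 (SE 0.44). The mean log2 CPM of the markers was 5.99, 5.69 and 5.42 with vesicles and 6.39, 5.89 and 5.87 in Glutamate. How many of all tested genes separated on this scale was not counted.

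The vesicular transporter was also set against the synthesising enzyme. The log2 ratio of Slc32a1 to Gad1 was -2.47, -1.59 and -1.63 in Control and -2.81, -3.12 and -2.74 in Glutamate, without overlap. The difference of the means was -0.996 (exact permutation p = 0.1, the smallest possible, adjusted 0.6 over 6 ratios), and it ran from -1.28 to -0.84 when single libraries were left out. In Memantine the ratio was -2.99, -2.33 and -2.39, which overlapped the Glutamate range (difference 0.32, exact permutation p = 0.3). The ratio of Gad1 to Gad2 differed by 0.22 between Glutamate and Control (exact permutation p = 0.9), and that of Gabra2 to Gabra5 by 1.09 (exact permutation p = 0.5).

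**Figure D4:**
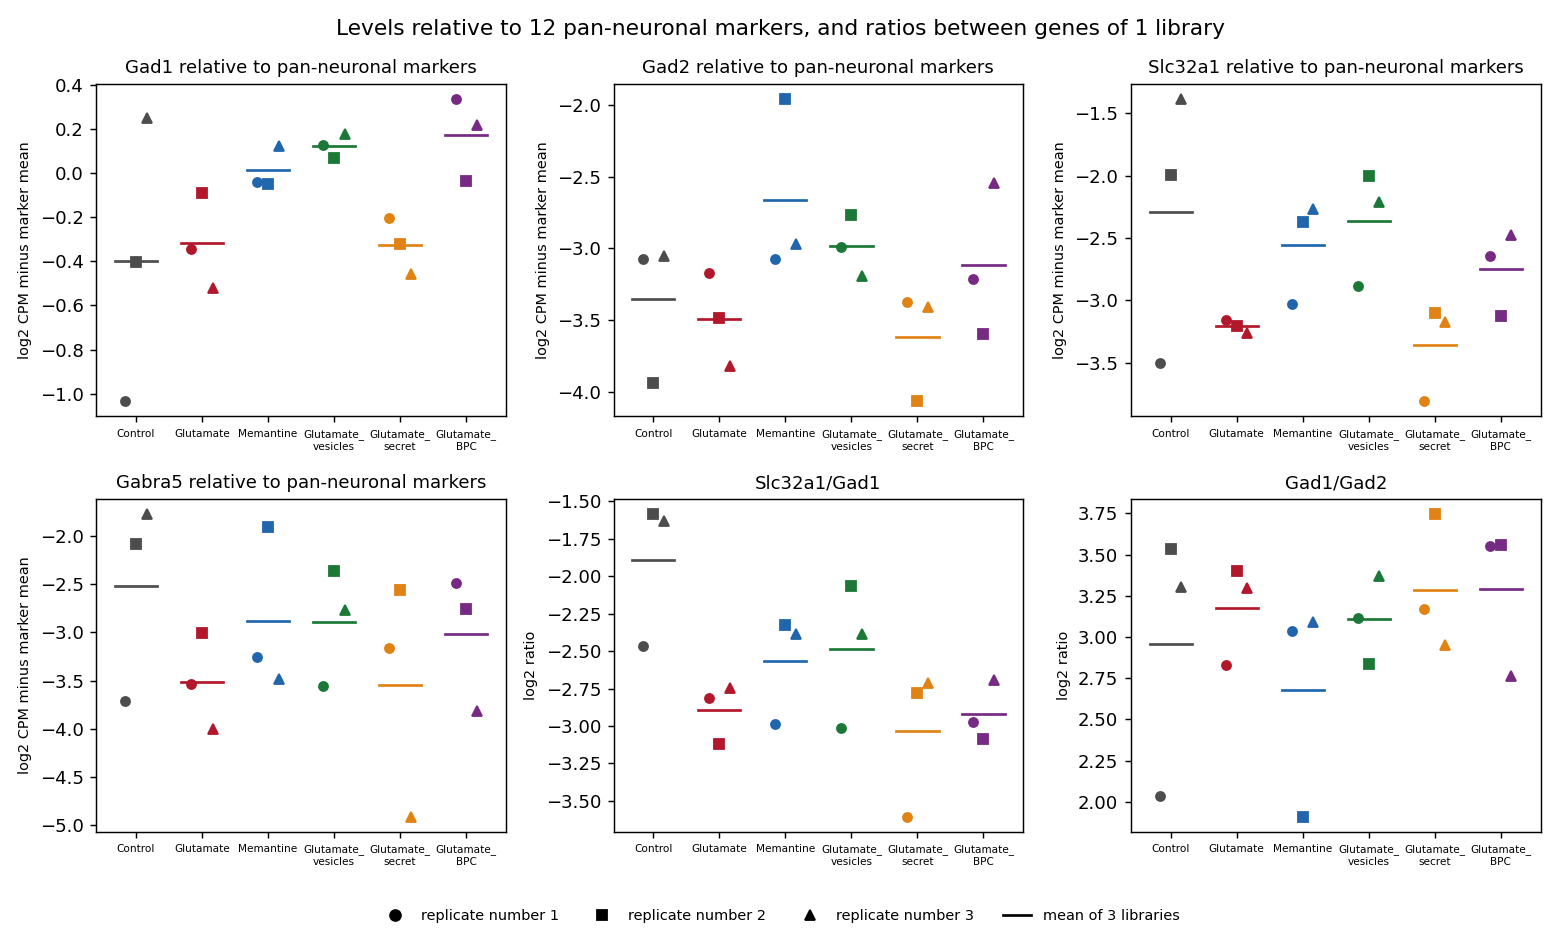
Log2 CPM of Gad1, Gad2, Slc32a1 and Gabra5 minus the mean log2 CPM of 12 pan-neuronal markers of the same library, and the log2 ratios Slc32a1/Gad1 and Gad1/Gad2 (vertical axes, log2), by group, with the replicate number as marker shape and the group mean as a line. The Glutamate libraries lie below those of Control in the ratio Slc32a1/Gad1, and below those of Memantine, Glutamate_vesicles and Glutamate_BPC for Gad1 and Slc32a1.

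Across the 18 libraries, the log2 CPM of the inhibitory genes went together. Pearson's r was 0.90 for Gad1 with Gad2, 0.87 for Gad1 with Slc32a1 and 0.85 for Gad1 with Gabra5, and it was 0.25 for Gad1 with Gabra2. Gabra2 and Gabrb2 went together at 0.78. These values describe libraries that share groups, replicate numbers and depth, and are given without a test. The log2 share of ribosomal RNA had an r of 0.02 with Gad1 and of -0.55 with Gabra2, and the mean of the pan-neuronal markers had an r of 0.90 with Gad1 and of 0.31 with Gabra2. Gabra2 also had an r of 0.33 with Gad2, 0.42 with Slc32a1 and 0.57 with Gabra5. It therefore followed these genes and the neuronal markers less closely than Gad1 did. After removal of the mean of each replicate number, its r was 0.50 with Gad1, 0.63 with Gad2, 0.51 with Slc32a1 and 0.62 with Gabra5. Of the libraries with the replicate number 2, those of Glutamate, Memantine and all 3 preparations held the highest Gabra2 level of their group, and Control 2 the lowest of its group.

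The likeness of other genes was measured by Pearson's r of log2 CPM over the 18 libraries, among 11875 genes whose mean log2 CPM was 1 or more. For Gad1 they were Thy1 (r = 0.96), a surface protein of neurons, Mpped1 (0.96) and Hpcal4 (0.95), and for Slc32a1 they were Ube2ql1 (0.96), Tubb3 (0.95), the neuronal beta-tubulin, and Plch2 (0.95). Gad2 was most like LOC100125362 (0.90), Kcnj6 (0.89), a potassium channel opened by GABA-B receptors among others, and Usp29 (0.89). Gabra5 was most like Nkain2 (0.97), Prkar2b (0.96) and Gucy1a1 (0.96), Gabra2 most like Psd3 (0.96), Klhl24 (0.96) and Stox2 (0.96), and Gabrb2 most like Fam169a (0.93), Ttbk1 (0.89) and Trpc1 (0.88).

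The wider GABA pathway was described by 38 further genes, of which 29 passed the filter on low counts. None was called for Glutamate against Control. Of the 29, 21 had a log2 difference below 0, with a median of -0.68 against 0.08 over all tested genes, and 6 had an unadjusted p under 0.05 in the lower direction, against 5.97% of all tested genes. For Memantine against Glutamate 23 were above 0, with a median of 0.59 against -0.02 over all tested genes, and 6 had an unadjusted p under 0.05 in the higher direction, against 4.88% of all tested genes. Again none was called.

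Of 9 other tested GABA-A subunits, 3 were lower under glutamate at an unadjusted p under 0.05, against 5.97% of all tested genes. Among them, Gabrr2, a rho subunit, differed by -1.69 (SE 0.76, unadjusted p = 0.0418 in edgeR) at mean levels of 1.37 and 0.430 CPM. The ranges of all 3 lay below Control, as did those of 7.76% of all tested genes. Gabrb1 and Gabrg1 had differences above 0, of 0.36 (SE 0.53) and 1.10 (SE 1.20). For Memantine against Glutamate none of the 9 had an unadjusted p under 0.05.

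Subunit genes lie in clusters in the rat genome. In RefSeq's gene order, Gabrb2 lies beside Gabra6, which held at most 1 read in any library. Gabra2 lies beside Gabrg1 and near Gabra4 and Gabrb1, and Glutamate 2 was the highest Glutamate library in Gabra2, Gabra4 and Gabrg1, with 14.9, 3.75 and 24.8 CPM. Gabrb1 was highest in Glutamate 3, with 9.14 CPM against 7.56 CPM in Glutamate 2. Pathway genes outside this cluster also peaked in Glutamate 2, among them Gphn with 45.3 CPM and Slc12a2 with 57.01 CPM.

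Outside the ionotropic receptor, the gene of the GABA-B subunit Gabbr2 was at 40.3, 50.01 and 43.0 CPM in Control and at 14.5, 28.4 and 12.7 CPM in Glutamate, with a log2 difference of -1.26 (SE 0.66, unadjusted p = 0.0732 in edgeR). It differed by 1.57 between Memantine and Glutamate (SE 0.66, unadjusted p = 0.031 in edgeR). Its partner Gabbr1 had no such gap, with 325, 585 and 713 CPM in Control and 570.5, 914 and 654 CPM in Glutamate (difference 0.40, SE 0.45). Kctd16, an auxiliary subunit of the GABA-B receptor, differed by 1.80 between Memantine and Glutamate (SE 0.81, unadjusted p = 0.0411 in edgeR).

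Uptake and breakdown of GABA are carried out by astrocytes along with neurons. The log2 difference between Glutamate and Control was 0.60 (SE 1.04) for Slc6a11, the transporter of astrocytes, 0.55 (SE 0.47) for Abat, the GABA transaminase, and 0.16 (SE 0.51) for Aldh5a1, which acts after it. The unadjusted p-values in edgeR were 0.572, 0.256 and 0.762.

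Chloride transport sets the direction of GABA-A currents. Slc12a5, the chloride exporter of mature neurons, was at 6.85, 45.3 and 36.1 CPM in Control and at 4.39, 5.59 and 3.40 CPM in Glutamate. Its log2 difference of -2.73 (SE 0.83, unadjusted p = 0.00496 in edgeR) was the largest of the 29 pathway genes below 0. In Memantine it was at 22.2, 72.0 and 3.66 CPM, with a difference from Glutamate of 2.87 (SE 0.84, unadjusted p = 0.00361 in edgeR) , although Memantine 3 lay within the Glutamate range. Slc12a2, the chloride importer, differed by 0.27 (SE 0.91) and -0.05 (SE 0.90) in the same comparisons.

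At the inhibitory postsynapse, 2 of 9 genes had an unadjusted p under 0.05 for Glutamate against Control, against 5.97% of all tested genes in the lower direction. Shisa7, an auxiliary protein of GABA-A receptors, differed by -1.34 (SE 0.56, unadjusted p = 0.0306 in edgeR), and Iqsec3, a partner of gephyrin, by -1.78 (SE 0.84, unadjusted p = 0.0492). For Memantine against Glutamate, Shisa7 differed by 2.08 (SE 0.58) and Iqsec3 by 2.07 (SE 0.84), with unadjusted p-values in edgeR of 0.00246 and 0.0256. Lhfpl4, which anchors GABA-A receptors at synapses, differed by 0.89 (SE 0.37, unadjusted p = 0.0303 in edgeR). The scaffold gene Gphn differed by -0.16 (SE 0.75) and 0.31 (SE 0.75). These p-values are unadjusted.

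**Figure D5:**
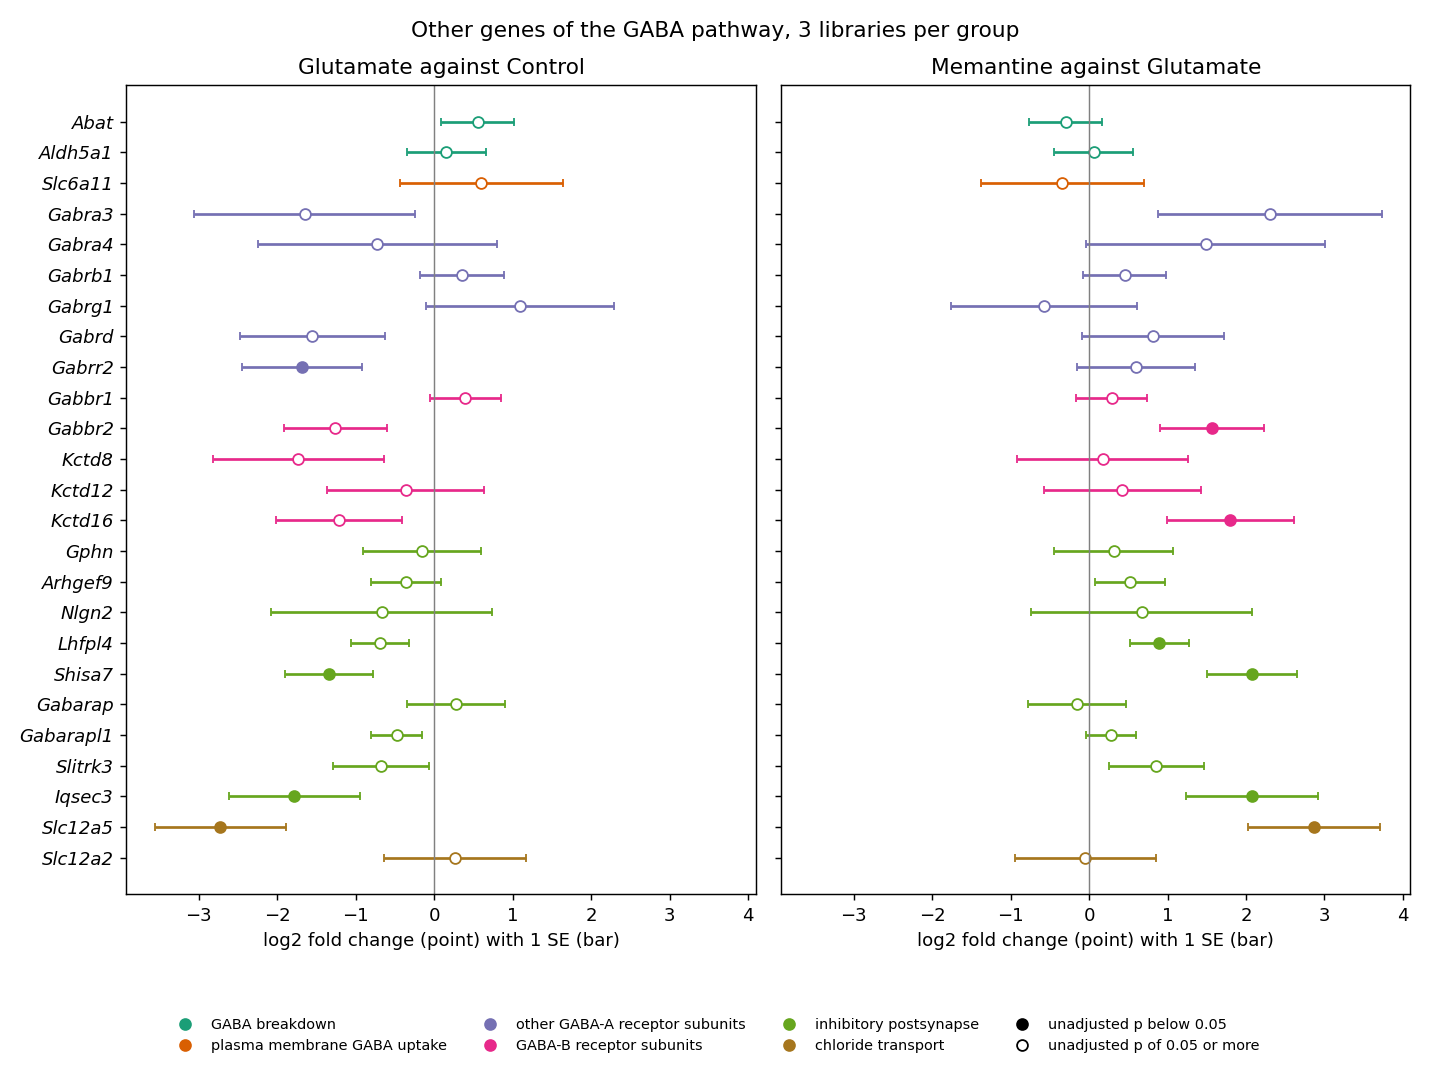
Log2 fold change (horizontal axis, point) with 1 SE (bar) of 25 of the 29 tested pathway genes for Glutamate against Control and Memantine against Glutamate, coloured by list and filled where the unadjusted p in edgeR was below 0.05. Filled points lie below 0 on the left (4 genes) and above 0 on the right (6 genes), and the breakdown and uptake genes lie between -0.34 and 0.60 in both.

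In the groups with a preparation, the pathway genes lay below Control as the members did. Of the 29, the log2 difference from Control was below 0 in 24 with vesicles, in 25 in Glutamate_secret and in 27 in Glutamate_BPC, and 11, 11 and 10 of them had an unadjusted p under 0.05 in edgeR, against 7.61%, 7.61% and 7.42% of all tested genes in the lower direction. In this order, Gabbr2 differed by -1.69 (SE 0.66), -1.97 (SE 0.67) and -2.10 (SE 0.67). Gabbr1 stayed within 0.10 of Control in all 3 groups, and Slc12a5 differed by -2.13 (SE 0.81), -3.10 (SE 0.85) and -2.51 (SE 0.82). Relative to Glutamate, 1, 0 and 1 of the 29 had an unadjusted p under 0.05 in edgeR, against 1.08%, 0.681% and 1.07% of all tested genes. In the same order, 20, 26 and 25 of the 29 had a log2 difference from Glutamate below 0, with medians of -0.19, -0.52 and -0.58. Of all 14398 tested genes, 7380, 7342 and 7879 were below 0, with medians of -0.012, -0.009 and -0.047.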

How the data were processed

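Bulk mRNA libraries of 18 rat cultures, 3 in each of 6 groups named from the labels, were used. The deposited tables hold expected counts per gene, which the authors estimated with Salmon against rat transcripts (rn6) and summed by gene with tximport. The processing notes of the labels also name STAR. They were rounded to whole numbers. Library totals are given in the report, and depth limits Gabrb2 most. The labels call the libraries strand-specific, but no source used here gives the strand setting of the counting, so reads shared by overlapping genes may be split either way.

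All 18 libraries were fitted in edgeR 4.0.16 (R 4.3.3) with 1 mean per group, after filterByExpr (minimum count 10, total 15) and TMM scaling, and tested by the quasi-likelihood test with Benjamini-Hochberg adjustment over 14398 genes. An adjusted p below 0.05 is a call. SE was taken as the log2 difference over the root of F. Log2 CPM used a prior count of 2. Relative levels and ratios were compared by two-sided exact permutation tests. The alternatives were edgeR's likelihood-ratio test, which is the test of the study, DESeq2 1.42.0, other size factors, no filter, a replicate block, ribosomal RNA as a covariate or left out, fits of 2 groups alone, and leaving out libraries. The fit for Glutamate against Control was also run on simulated counts. These were drawn from the fitted spread without an effect of the replicate number, so they cannot test how libraries of a number vary together.

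The 6 genes and all lists were chosen with earlier results of these data known. Pathway genes are named where the unadjusted p was below 0.05 in Glutamate against Control or Memantine against Glutamate (at most 8 each), with Gabbr1, Gabbr2 and Slc12a5 named whatever their p and, for each member, the 3 most alike genes. Values of 4 pathway genes are not reported here singly, but enter the counts. The other pathway genes and single markers named were chosen after their values were seen. The study's methods say in general that experiments were repeated on unrelated cultures, and name day as a covariate of a principal component analysis. Neither these nor the labels say which libraries shared a culture or a day, so p-values measure the spread between these libraries, which may be technical. Replicate numbers paired the libraries (r of deviations above 0.1 for all 3 numbers) in 4 of 9 comparisons, with r from -0.454 to 0.892. These were Glutamate_vesicles against Control, and Memantine, Glutamate_secret and Glutamate_BPC against Glutamate. A blocked value stands beside a result only for Glutamate_vesicles against Control. Other blocked values are given among the alternatives, where the block changed a call or a direction.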

Additional observations from a re-analysis of the deposited data

How the results depend on the processing

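Slc32a1 decides most counts of called genes. Called members went from 0 to 1, in each case Slc32a1, with the likelihood-ratio test for Glutamate, Glutamate_secret and Glutamate_BPC against Control, and with DESeq2 for these and Glutamate_vesicles. With the replicate block the count was 1 for Glutamate, Glutamate_vesicles and Glutamate_BPC against Control and 3 for Glutamate_secret (Slc32a1, Gad1 and Gabra5), with adjusted p-values in edgeR of 0.0398, 0.039, 0.0471 and 0.0147 for Slc32a1 in this order. With ribosomal RNA as a covariate it was 2 for Glutamate_secret (Slc32a1 and Gabra5). Without single libraries the count for Memantine against Glutamate ran from 0 to 3, the latter without Memantine 3. Calls over all tested genes were counted only for the main fit, so these counts cannot be set against a share of all genes. Of the 9 comparisons, the numbers paired the libraries in 4, and of the comparisons whose count changed under the block only Glutamate_vesicles against Control is among these.

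Directions turned mainly where a difference was small or rested on libraries with number 2. Log2 differences became 0.0372 for Gabrb2 (vesicles against Glutamate) without the filter, -0.0253 for Gad1 and -0.488 for Gabra2 (Memantine against Control) with the replicate block, and -0.149 for Gabra5 (vesicles against Glutamate) and -0.577 for Gabra2 (Memantine against Control) with the ribosomal covariate. Leaving out all libraries of a number was chosen after seeing the data. Without number 1 they were 0.255 for Gabrb2 (vesicles against Glutamate) and -0.353 for Gad1 (Memantine against Control). Without number 2, Memantine against Glutamate gave -0.313 for Gabra2 and -0.391 for Gabrb2, Memantine against Control -0.396 for Gad2, -2.35 for Gabra2 and -1.76 for Gabrb2, vesicles against Glutamate -0.0359 for Gad2, and Glutamate_secret against Control 0.0851 for Gabrb2. Without number 3 they were 0.249 for Gabrb2 (vesicles against Glutamate), 0.0455 for Gabra5 and -0.0808 for Gabrb2 (Glutamate_secret against Glutamate), -0.255 for Gad2 (Glutamate_BPC against Glutamate) and 0.172 for Gabra5 (Memantine against Control).

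Without single libraries, Memantine against Control ran from -0.261 to 0.558 for Gad1, -0.188 to 0.999 for Gad2, -2.20 to 1.4998 for Gabra2, -1.27 to 0.144 for Gabra5 and -1.92 to 1.99 for Gabrb2. Memantine against Glutamate ran from -1.66 to 2.77 for Gabra2 and -0.749 to 3.14 for Gabrb2. Vesicles against Glutamate ran from -0.0895 to 0.25 for Gad1, -0.11 to 0.53 for Gad2, -1.38 to 1.14 for Gabra2, -0.059 to 0.43 for Gabra5 and -1.45 to 0.51 for Gabrb2. Glutamate_secret against Glutamate ran from -0.80 to 0.034 for Gad2, -1.55 to 0.96 for Gabra2, -0.48 to 0.32 for Gabra5 and -0.095 to 1.23 for Gabrb2, and against Control from -1.26 to 0.0595 for Gabrb2. Glutamate_BPC against Glutamate ran from -0.065 to 0.58 for Gad2 and -0.030 to 0.79 for Gabra5. The cause was not tested. For Glutamate against Control no direction turned. Among the other settings, 407 of 427 log2 differences kept direction and side of the threshold, as did 436 of 486 without libraries. All 474 values of relative levels and ratios moved by less than 1 SD of the libraries. Most of the 474 leave out 1 of 3 libraries, which cannot move a group mean by 1 SD. For those values this outcome was fixed in advance and says nothing about their stability. Fits of 2 groups alone gave 49 of the 54 values.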
